A study of Rattus norvegicus with 138 samples.

Results

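The muscles compared here were the uninjured right tibialis anterior (TA) of rats whose left TA had received a volumetric muscle loss (VML) injury, set against the TA of unoperated rats. The members were chosen by label alone: contralateral muscles of rats that did not run, from both repair arms, at 3, 7, 14 and 28 days post injury (DPI), and all muscles labelled Sham at day 0. They were 22 contralateral muscles from 22 rats and 4 control muscles from 2 rats, 26 muscles out of the 114 that the whole series holds after the same library filter. At each of 3, 14 and 28 DPI there were 4 contralateral muscles, 2 from rats whose defect was left empty (NoRepair) and 2 from rats whose defect was filled with autologous minced muscle grafts (MMG). At 7 DPI there were 10, of which 4 were NoRepair and 6 were MMG. All were male inbred Lewis rats, and operated animals had buprenorphine before surgery on the other leg. The controls are called Sham in the labels and were muscles of rats without surgery, the left and right TA of each of 2 rats, so the muscles of 1 rat are not independent and p values reflect in part the spread within an animal. Control rats carry numbers of 1 series and operated rats numbers of another, so a difference between the groups and a difference between the series cannot be told apart.

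The TA lifts the foot and is built almost wholly of fast fibers. Between its fibers lies a thin interstitium of fibroblasts, which secrete collagens and small proteoglycans, and of resident macrophages and mast cells, and this compartment gives only a small part of muscle mRNA. The opposite leg of an injured animal shares the circulation, the wound response and the altered loading of that animal, and is for this reason a much used but imperfect control. A bulk RNA value rises when cells of a type become more numerous or when each holds more of the RNA, and these cannot be told apart here.

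Values are transcript abundances in TPM, which scale each library to the same total and adjust for transcript length, and they carry no read numbers, which leaves counting error unmeasured. Differences are log2 fold changes of TPM + 1, contralateral against control, from a limma fit on the 26 muscles, and are understated for genes of low level. A gene was called at a Benjamini-Hochberg adjusted p under 0.05 over all 9669 tested genes with a log2 fold change beyond 1 in either direction. Of 28 libraries, 2 from 7 DPI NoRepair muscles were left out because they held 901 and 3301 symbols above 1 TPM. The 26 used held 7866 to 9736. The lowest of these was the right TA of control rat 038, control replicate 4, which also had the highest level of skeletal actin (Acta1), 69428 TPM against 44585 to 48112 TPM in the other 3 control muscles. Its median-of-ratios size factor, a measure of how the bulk of genes stands against the other muscles, was 0.583, while those of the other 3 lay between 0.957 and 1.035 and those of the 4 muscles at 3 DPI between 1.2 and 1.42. Of all tested genes, 84.3% were lowest among the controls in this muscle. Over the 9669 tested genes the median log2 fold change was above 0, with values of 0.49, 0.12, 0.07 and 0.14 at 3, 7, 14 and 28 DPI, and fell to -0.03 at 3 DPI and between -0.02 and -0.01 on the later days after division by size factors. Among muscle genes, 11 of 12 markers had values, and their sum was 189000 to 237000 TPM in control and 149000 to 199000 TPM in contralateral muscle.

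Contralateral muscle differed from control muscle on every day, most of all at 3 DPI and mostly toward higher levels. At 3 DPI 798 genes were called higher (8.25% of those tested) and 7 lower (0.0724%). At 7 DPI the counts were 106 higher (1.1%) and 14 lower (0.145%), at 14 DPI 113 genes were called, 1.12% of those tested as higher and 5 (0.0517%) as lower, and at 28 DPI 52 higher (0.538%) and 2 lower (0.0207%). The test of the mean over the 4 days, which picks out no day, called 152 genes higher (1.57%) and 5 lower (0.0517%). The 4 comparisons share the control muscles, so a control muscle with low values raises all of them at once. Size factors left 225 genes above and 55 below control at 3 DPI, 81 above and 22 below at 7 DPI, 98 above and 12 below at 14 DPI, and 37 above and 4 below at 28 DPI. Without control replicate 4 the counts above and below control were 504 and 11 at 3 DPI, 60 and 30 at 7 DPI, 60 and 23 at 14 DPI, and 23 and 3 at 28 DPI, so lower genes then made up a larger part of the calls at 7 and 14 DPI.

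Genes called in the same direction on every day numbered 39, of which 38 were higher (0.393% of those tested) and 1, Hmgn5, was lower (0.0103%). The 38 were grouped by known roles after they had been called, for description and with no test. They held 15 genes of the extracellular matrix or of proteins that interstitial cells secrete, 5 complement genes and 10 genes placed with macrophages, mast cells and antigen presentation. Of the gene lists described further below, 3 of 27 genes of collagens and structural matrix, 2 of 20 leukocyte markers and 1 of 8 class II genes were among the 38. The other 8 were Acot4, LOC100362981, Cadm3, Fxyd2, Rnase4, Tf, Pltp and Mobp. The median log2 fold change of the 38 was 2.09 at 3 DPI and 1.2, 1.23 and 1.2 on the 3 later days. For 28 of the 38, each of the 22 contralateral muscles lay above each of the 4 control muscles, which was so for 263 of all tested genes (2.72%). The rule chose the genes by these comparisons, so the values below describe them.

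**Figure D1:**
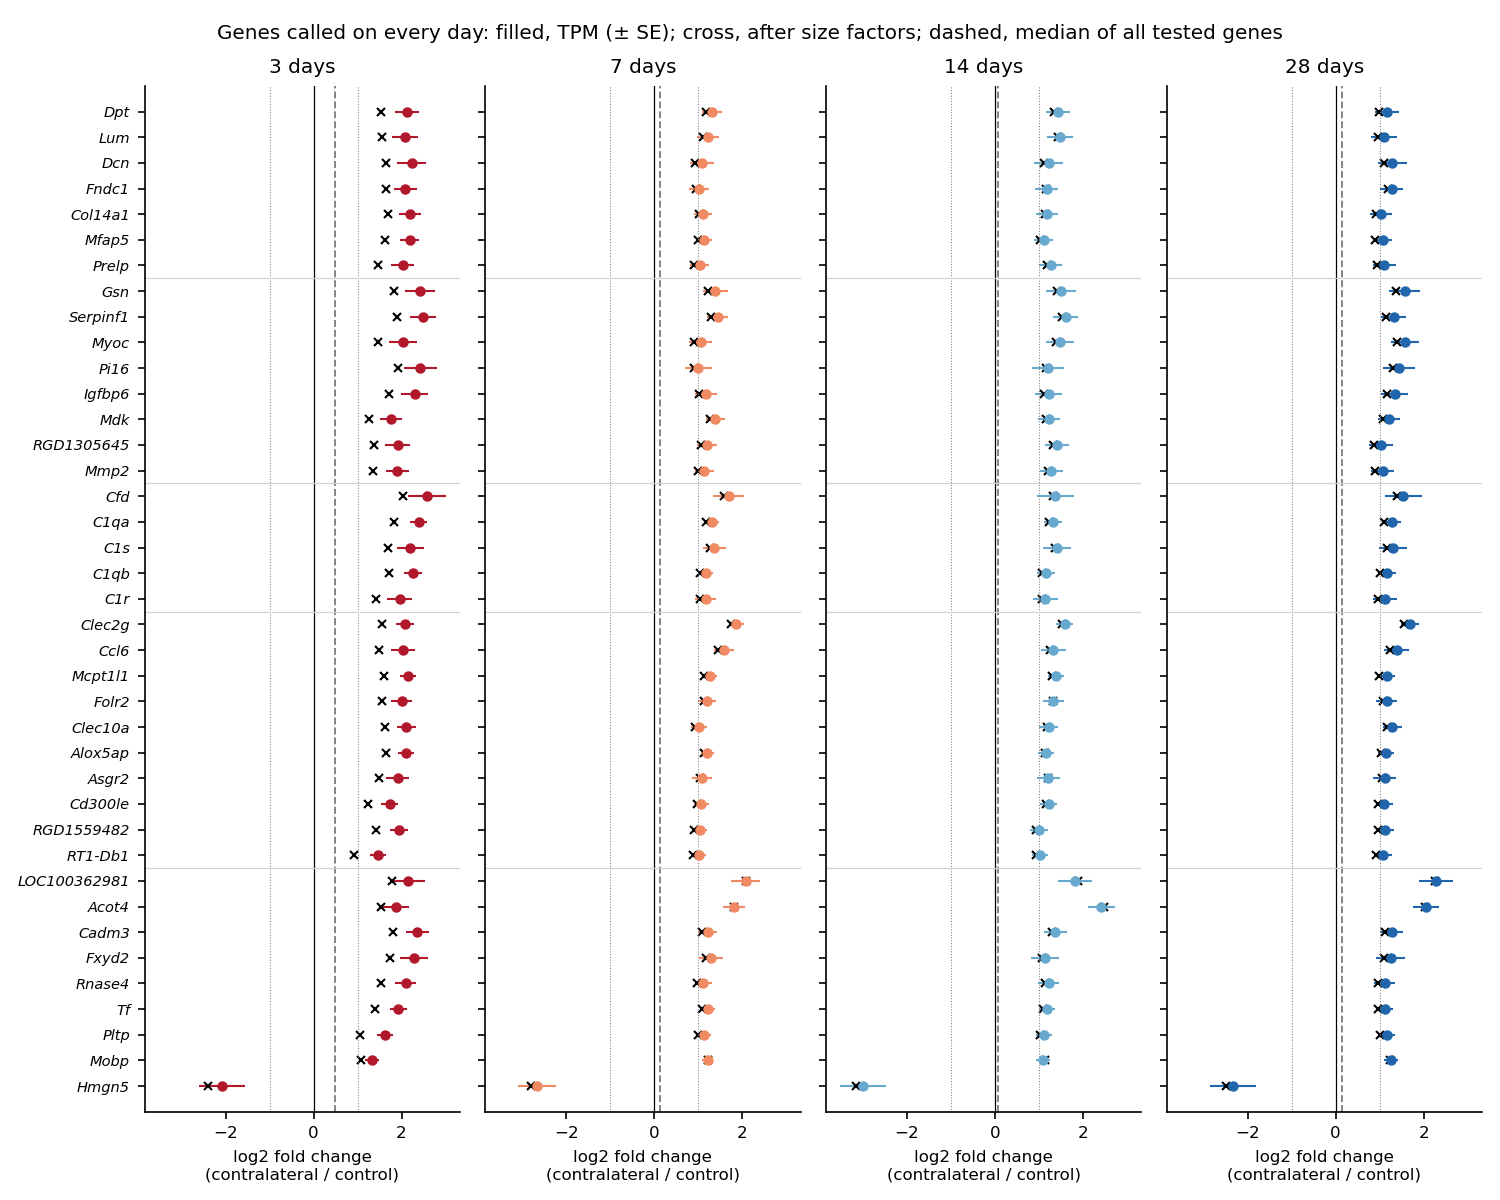
Log2 fold change (contralateral over control, x axis) of the 39 genes called on every day (y axis), in 1 panel per day. Filled points are fits on TPM with bars of 1 standard error, crosses are the same after size factors, the dashed line is the median of all tested genes and dotted lines mark the limits of the call. At 3 DPI the filled points stand farthest to the right and the crosses lie to the left of them, while on the later days most points and crosses lie close to the limit of 1 and Acot4, LOC100362981, Clec2g and Hmgn5 lie farther out.

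Genes of the matrix are given first. Decorin (Dcn) and lumican (Lum) are small leucine-rich proteoglycans that bind collagen fibrils, and their genes are neighbours in the rat genome. Dcn was at 102, 109, 131 and 32.9 TPM in the 4 control muscles and at 640.5, 333, 503 and 225 TPM at 3 DPI. Across the 10 muscles at 7 DPI it ranged from 106 to 263 TPM (median 173), against 259, 172, 145 and 227 TPM at 14 DPI and 195, 219.9, 220.0 and 188 TPM at 28 DPI. The highest value of all was at 3 DPI, and 21 of 22 contralateral muscles lay above the highest control. The log2 fold change of Dcn was 2.23 ± 0.33 (SE) at 3 DPI (adjusted p 5.8e-06) and 1.29 ± 0.33 at 28 DPI (adjusted p 0.0313). Control muscle held 7.5, 9.5, 11.5 and 2.23 TPM of Lum, and muscle at 3 DPI held 43.5, 25.4, 40.4 and 23 TPM. The 10 values at 7 DPI spanned 9.11 to 23.5 TPM around a median of 18.1 TPM, those at 14 DPI were 25.9, 18.5, 16.8 and 22.6 TPM and those at 28 DPI 16.3, 14.8, 16.3 and 15.3 TPM. In both genes control replicate 4 was far below the other controls, and the difference shrinks without it: at 28 DPI the log2 fold change without this muscle was 0.85 for Dcn (adjusted p 0.162) and 0.68 for Lum (adjusted p 0.2), neither of them called.

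The other matrix genes also had their largest fold at 3 DPI. Dermatopontin (Dpt), which binds decorin and collagen fibrils, lay at 7.27 to 22.2 TPM in control and 24.6 to 106 TPM in contralateral muscle. Type XIV collagen (Col14a1), a collagen on the surface of fibrils, lay at 1.03 to 2.72 TPM in control and 3.58 to 18.2 TPM in contralateral muscle. The proteoglycan Prelp ranged over 4.18 to 6.97 TPM in control and 9.35 to 40.7 TPM in contralateral muscle. All 3 were higher in each contralateral muscle than in any control. Fndc1, a protein with fibronectin type III domains, lay at 0.67 to 2.21 TPM in control and 2.87 to 15.7 TPM in contralateral muscle. The 4 control muscles held 5.47, 6.74, 6.19 and 4.95 TPM of Mfap5. Its level was 47, 30.9, 35.2 and 15.5 TPM at 3 DPI, 10 to 19.9 TPM at 7 DPI (10 muscles, median 14.4), 15.7, 12.3, 11.3 and 16.1 TPM at 14 DPI and 14.3, 13, 12.4 and 13.5 TPM at 28 DPI. Mfap5 encodes a glycoprotein of elastic microfibrils, and its 4 control values lay close together, replicate 4 included. It was the 1 gene of the 7 in this group that was called on every day with control replicate 4 left out.

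Secreted factors and enzymes of the interstitium made up 8 of the genes. Serpinf1, which encodes pigment epithelium-derived factor, an inhibitor of angiogenesis, had a log2 fold change of 2.48 ± 0.29 at 3 DPI and 1.32 ± 0.29 at 28 DPI. Serpinf1 was at 19.4, 22.2, 26.3 and 8.53 TPM in the 4 control muscles and at 166, 86.3, 145 and 55.9 TPM at 3 DPI. Across the 10 muscles at 7 DPI it ranged from 36.5 to 67.4 TPM (median 50.1), against 77.2, 45.6, 41.5 and 67.1 TPM at 14 DPI and 49.6, 43.6, 41.7 and 48.7 TPM at 28 DPI. No contralateral muscle fell into the control range. Gelsolin (Gsn), which severs actin filaments and is also secreted, was the most abundant of the 39 genes at 50.7 to 256 TPM in control and 217 to 1168 TPM in contralateral muscle. The peptidase inhibitor Pi16, a marker of fibroblasts around vessels, lay at 1.58 to 7.02 TPM in control and 5.89 to 45.5 TPM in contralateral muscle with a log2 fold change of 2.43 ± 0.37 at 3 DPI and 1.01 ± 0.31 at 7 DPI. Myocilin (Myoc) lay at 7.32 to 26.6 TPM in control and 21.3 to 116 TPM in contralateral muscle, the insulin-like growth factor binding protein Igfbp6 at 14.3 to 22.7 TPM in control and 29.8 to 179.6 TPM in contralateral muscle, and the gelatinase Mmp2 at 4.9 to 12.7 TPM in control and 15 to 52.1 TPM in contralateral muscle. For RGD1305645, named Ecrg4 in RefSeq, the range was 3.32 to 6.46 TPM in control and 7.49 to 31.9 TPM in contralateral muscle. Midkine (Mdk), a heparin-binding growth factor, was at 1.49, 1.06, 5.89 and 2.07 TPM in control muscle, where replicate 3 stood high, and 18 of 22 contralateral muscles exceeded that value. Mdk was the 1 gene of these 8 called on every day both with and without control replicate 4 and with and without size factors.

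**Figure D2:**
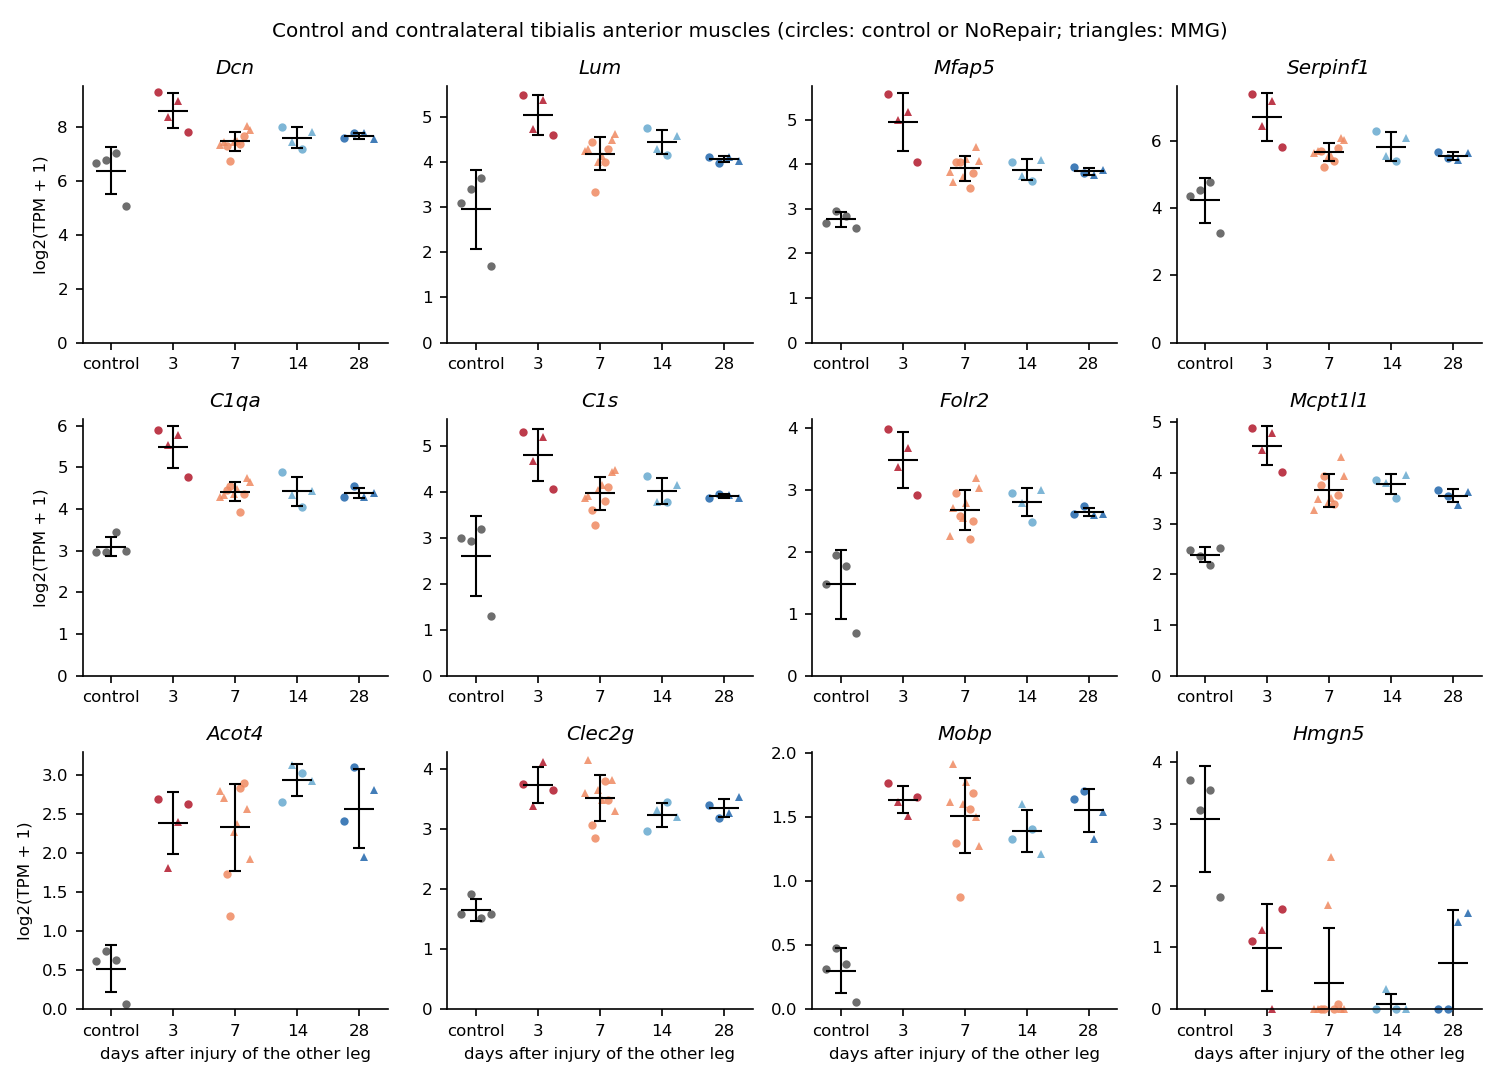
Level of 12 of the genes called on every day, as log2(TPM + 1) (y axis), in each control muscle and each contralateral muscle by days after injury (x axis). Points are muscles, horizontal lines the mean and bars the SD, which in Hmgn5 would run below the axis at 0. In Dcn, Lum, Serpinf1, C1s, Folr2, Acot4 and Mobp the lowest control point is replicate 4. In Mfap5, Mcpt1l1 and Clec2g the 4 controls lie close together, and in C1qa replicate 3 stands above the other controls. In Hmgn5 the order of the groups is turned round.

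Complement genes included parts of the classical and of the alternative pathway. C1qa and C1qb encode chains of C1q, which macrophages make and which recognises immune complexes and dying cells, and C1r and C1s encode the proteases that C1q activates. C1qc, another chain of C1q that is named here after its calls were seen, was called higher at 3 DPI and for the mean of the 4 days. It was not called at 7, 14 or 28 DPI. Control muscle held 6.82, 6.87, 9.87 and 7 TPM of C1qa, and muscle at 3 DPI held 58.3, 45.4, 53.3 and 26 TPM. The 10 values at 7 DPI spanned 14.2 to 25.9 TPM around a median of 20.1 TPM, those at 14 DPI were 28.5, 19, 15.5 and 20.5 TPM and those at 28 DPI 18.4, 22.4, 18.5 and 20 TPM. Each of the 22 contralateral muscles was above every control, and among the controls replicate 3 stood somewhat higher than the rest. The log2 fold change of C1qa was 2.39 ± 0.20 at 3 DPI (adjusted p 2.43e-08), 1.32 ± 0.16 and 1.32 ± 0.20 at 7 and 14 DPI, and 1.28 ± 0.20 at 28 DPI (adjusted p 0.000937). The 4 control muscles held 5.1, 5.35, 6.61 and 3.79 TPM of C1qb. Its level was 39.7, 30.6, 33.8 and 15.6 TPM at 3 DPI, 9.79 to 16.6 TPM at 7 DPI (10 muscles, median 13.4), 14.9, 11.4, 11.9 and 12.5 TPM at 14 DPI and 10.9, 12.9, 12.9 and 14.6 TPM at 28 DPI. C1qb differed by 2.26 ± 0.21 at 3 DPI and 1.17 ± 0.21 at 28 DPI. C1r, with its neighbour C1s, ranged over 3.31 to 13 TPM in control and 13.7 to 50.2 TPM in contralateral muscle. For C1s the control values were 6.96, 6.7, 8.2 and 1.47 TPM, with replicate 4 far below the others, and the contralateral values ran from 8.7 to 38.9 TPM. The log2 fold change of C1s was 1.36 ± 0.26, 1.41 ± 0.31 and 1.30 ± 0.31 at 7, 14 and 28 DPI, and that of C1r was 1.17 ± 0.23, 1.15 ± 0.28 and 1.12 ± 0.28. Adipsin (Cfd), the protease that starts the alternative pathway and a product of adipocytes, lay at 2.31 to 7.86 TPM in control and 9.38 to 78.9 TPM in contralateral muscle. Adipocyte markers varied beside Cfd: the sum of Adipoq, Plin1, Cidec and Lep was 1.18 to 2.88 TPM in control, 1.7 to 35.8 TPM at 3 DPI, 1.38 to 14.9 TPM at 7 DPI, 1.75 to 4.16 TPM at 14 DPI and 2.82 to 5.86 TPM at 28 DPI. These ranges overlapped with control on every day, Adipoq was called at 3 DPI alone, Plin1 and Cidec on no day, and Lep was not tested. The part of adipocytes in the Cfd values was not tested. Without control replicate 4, C1qa and C1qb stayed called on every day, and C1r, C1s and Cfd did not.

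The promoters of C1qa and C1qb, which have 1 gene between them and moved together, and that of Acot4, which had the largest fold of the 38 genes at 14 DPI, are given from the RefSeq table for build GRCr8. Each runs from 250 bases before to 50 bases after the annotated start, 5′ to 3′ on the gene's strand. Capitals mark AGGTCA, a site of nuclear receptors, or TGCNCNC, on either strand.

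C1qa, chr5:154419884-154420183, minus strand: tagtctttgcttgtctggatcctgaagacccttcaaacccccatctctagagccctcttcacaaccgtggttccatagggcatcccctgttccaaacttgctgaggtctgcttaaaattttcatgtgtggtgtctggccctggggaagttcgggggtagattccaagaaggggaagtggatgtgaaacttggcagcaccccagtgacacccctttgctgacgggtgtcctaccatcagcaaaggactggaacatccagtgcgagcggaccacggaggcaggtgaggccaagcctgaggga

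C1qb, chr5:154407778-154408077, minus strand: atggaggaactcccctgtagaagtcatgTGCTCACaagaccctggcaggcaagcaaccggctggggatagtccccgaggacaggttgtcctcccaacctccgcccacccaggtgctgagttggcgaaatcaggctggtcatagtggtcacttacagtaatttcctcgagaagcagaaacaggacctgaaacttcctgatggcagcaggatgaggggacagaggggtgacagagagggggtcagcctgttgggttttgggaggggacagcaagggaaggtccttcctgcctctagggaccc

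Acot4, chr6:109399604-109399903, plus strand: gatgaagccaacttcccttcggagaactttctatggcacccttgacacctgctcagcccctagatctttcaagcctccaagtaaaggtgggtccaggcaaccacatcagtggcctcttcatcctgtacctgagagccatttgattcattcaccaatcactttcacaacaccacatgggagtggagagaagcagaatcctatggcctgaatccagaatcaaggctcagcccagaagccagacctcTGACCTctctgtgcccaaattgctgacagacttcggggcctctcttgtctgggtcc

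Of the 39 genes, 38 matched a RefSeq symbol, 2 of them through an older name, and 26 had a promoter in the table. AGGTCA was found in 6 of these 26 (Acot4, Ccl6, Fndc1, Igfbp6, Serpinf1 and Tf), a share of 23.1% against 16.2% of all 33469 promoters of the table. TGCNCNC was in 14 (53.8% against 49.6%), TTATGNAA, the D-box, in 1 of them, C1r (3.85% against 3.66%) and CACGTG, an E-box, in 0 (against 6.42%). The glucocorticoid response element, the direct repeat 1 element of the PPARs and the heat shock element, sought as exact patterns, were in 0 of 26 and in under 1% of all promoters, at 0.0149%, 0.0538% and 0.798%. Motifs were sought on both strands, and AGGTCA also forms part of the direct repeat 1 element.

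Genes of macrophages, mast cells and antigen presentation formed the next group. Folr2, a folate receptor of tissue-resident macrophages, and Clec10a, a galactose-binding lectin of macrophages and dendritic cells, lay at 0.62 to 2.86 TPM in control and 3.6 to 14.7 TPM in contralateral muscle and at 1.34 to 3.41 TPM in control and 4.13 to 17.1 TPM in contralateral muscle respectively. Alox5ap was at 1.22, 1.71, 1.84 and 0.98 TPM in the 4 control muscles and at 11.8, 10.5, 11 and 5.6 TPM at 3 DPI. Across the 10 muscles at 7 DPI it ranged from 2.97 to 6.41 TPM (median 4.51), against 5.1, 3.78, 3.53 and 5.42 TPM at 14 DPI and 4.42, 4.12, 4.38 and 4.49 TPM at 28 DPI. This gene encodes the protein that presents arachidonic acid to 5-lipoxygenase in leukotriene synthesis, and no contralateral value reached down to the controls. Control muscle held 8.78, 7.45, 5.1 and 3.64 TPM of Ccl6, and muscle at 3 DPI held 38.2, 22, 42.4 and 15.9 TPM. The 10 values at 7 DPI spanned 13 to 30.1 TPM around a median of 19.5 TPM, those at 14 DPI were 18.4, 22.1, 9.01 and 19.8 TPM and those at 28 DPI 18.2, 16.6, 16.3 and 18.2 TPM. Ccl6 is a chemokine of myeloid cells, and its log2 fold change was 2.03 ± 0.28 at 3 DPI and 1.39 ± 0.28 at 28 DPI. The 4 control muscles held 4.59, 4.11, 3.57 and 4.74 TPM of Mcpt1l1. Its level was 28.4, 20.8, 26.6 and 15.2 TPM at 3 DPI, 8.57 to 18.9 TPM at 7 DPI (10 muscles, median 10.6), 13.6, 12.8, 10.4 and 14.5 TPM at 14 DPI and 11.6, 10.7, 9.34 and 11.3 TPM at 28 DPI. Mcpt1l1 encodes a mast cell protease. Its control values lay close together, with replicate 4 the highest of them, and its log2 fold change was 2.15 ± 0.19 at 3 DPI, 1.27 ± 0.16 at 7 DPI and 1.16 ± 0.19 at 28 DPI.

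The other genes of this group follow, among which Clec2g had the largest fold of the group on the 3 later days. RT1-Db1, a class II beta chain, lay at 6.71 to 12.6 TPM in control and 12.4 to 37.3 TPM in contralateral muscle with log2 fold changes of 1.47, 1.02, 1.03 and 1.09 at 3, 7, 14 and 28 DPI, and was called on no day after size factors. Cd300le, a receptor of the CD300 family, lay at 1.6 to 2.9 TPM in control and 4.23 to 13.4 TPM in contralateral muscle. RGD1559482, which is placed here with no role stated, lay at 2.67 to 3.41 TPM in control and 3.92 to 17.7 TPM in contralateral muscle. Asgr2, a subunit of the asialoglycoprotein receptor and neighbour of Clec10a, lay at 0.43 to 2.31 TPM in control and 2.03 to 9.55 TPM in contralateral muscle. Clec2g was at 1.98, 2.79, 1.86 and 2.01 TPM in the 4 control muscles and at 12.4, 9.46, 16.3 and 11.6 TPM at 3 DPI. Across the 10 muscles at 7 DPI it ranged from 6.18 to 16.6 TPM (median 10.6), against 6.82, 8.97, 9.86 and 8.22 TPM at 14 DPI and 9.59, 8.11, 8.55 and 10.5 TPM at 28 DPI. Clec2g encodes a C-type lectin of a family with many near copies, so its reads may be shared with them, and the same holds for RT1-Db1, Mcpt1l1, Cd300le, RGD1559482 and Acot4. The log2 fold change of Clec2g was 2.07 ± 0.20 at 3 DPI and 1.86 ± 0.17, 1.58 ± 0.20 and 1.69 ± 0.20 on the 3 later days. Of the 10 genes of this group, 5 stayed called on every day after size factors (Alox5ap, Asgr2, Ccl6, Clec2g and Folr2) and 5 without control replicate 4 (Alox5ap, Ccl6, Cd300le, Clec2g and Mcpt1l1).

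Leukocyte markers stood higher as a sum, and few were called singly after 3 DPI. The summed level of Ptprc, Cd68, Csf1r, Laptm5 and Itgb2 was 6.06 to 10.1 TPM in control muscle, 19.9 to 39.2 TPM at 3 DPI, 12.5 to 25.3 TPM at 7 DPI, 14.8 to 20.7 TPM at 14 DPI and 15.7 to 17.8 TPM at 28 DPI, so no contralateral muscle fell within the control range. Ptprc, Cd68, Csf1r and Laptm5 were called at 3 DPI, Cd68 and Csf1r also at 14 DPI, and Itgb2 on no day. None of these markers was called at 7 or 28 DPI. The neutrophil markers S100a8, S100a9 and Mpo summed to 1.17 to 5.44 TPM in control, 8.23 to 101 TPM at 3 DPI, 7.79 to 32.4 TPM at 7 DPI, 3.62 to 15.4 TPM at 14 DPI and 2.31 to 4.0 TPM at 28 DPI, with Mpo at 0.09 TPM or below in every muscle. Endothelial markers summed to 27.9 to 56.3 TPM in control and 40.7 to 78.8 TPM in contralateral muscle, smooth muscle markers to 5.21 to 12.1 TPM and 5.53 to 18.1 TPM, and erythroid markers to 816 to 2260 TPM and 536 to 16100 TPM. Keratinocyte markers did not exceed a sum of 0.24 TPM in any muscle. How far these cells account for the gene differences was not tested.

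Acot4 and LOC100362981 had the largest mean differences of the 38, at 2.04 ± 0.24 and 2.08 ± 0.30 over the 4 days. Acot4 encodes a peroxisomal thioesterase that cleaves acyl-CoA. Control muscle held 0.53, 0.68, 0.55 and 0.05 TPM of Acot4, and muscle at 3 DPI held 5.45, 2.51, 4.25 and 5.18 TPM. The 10 values at 7 DPI spanned 1.29 to 6.47 TPM around a median of 4.54 TPM, those at 14 DPI were 5.31, 7.74, 7.11 and 6.6 TPM and those at 28 DPI 4.29, 7.61, 2.87 and 6.02 TPM. The lowest contralateral value was above the highest control value, and the largest difference was at 14 DPI, with a log2 fold change of 2.42 ± 0.30 (adjusted p 5.01e-05), not at 3 DPI, where it was 1.86 ± 0.30. The 4 control muscles held 4, 0, 2.62 and 0 TPM of LOC100362981. Its level was 9.03, 7.58, 9.53 and 6.66 TPM at 3 DPI, 3.23 to 11.9 TPM at 7 DPI (10 muscles, median 8.23), 8.95, 7.1, 4.79 and 5.1 TPM at 14 DPI and 10.1, 8.13, 9.17 and 8.66 TPM at 28 DPI. It was listed at 0 in 2 of the 4 controls, 1 muscle of each rat, and 21 of 22 contralateral muscles lay above the highest control. Mobp was at 0.24, 0.39, 0.28 and 0.04 TPM in the 4 control muscles and at 2.4, 2.07, 1.85 and 2.15 TPM at 3 DPI. Across the 10 muscles at 7 DPI it ranged from 0.84 to 2.77 TPM (median 2), against 1.52, 2.04, 1.66 and 1.32 TPM at 14 DPI and 2.12, 2.26, 1.51 and 1.91 TPM at 28 DPI. Mobp, a structural protein of myelin in the central nervous system, did not exceed 0.39 TPM in control and did not fall below 0.84 TPM in contralateral muscle, with log2 fold changes of 1.34, 1.21, 1.09 and 1.25. Acot4 and Mobp lay below 1 TPM in every control muscle. They passed the filter of a group mean above 1 TPM only through contralateral groups, where they were high, so their calls are descriptive.

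Control muscle held 4.9, 3.81, 7.44 and 3.18 TPM of Cadm3, and muscle at 3 DPI held 45.4, 27.9, 28.9 and 16.3 TPM. The 10 values at 7 DPI spanned 9.05 to 18.4 TPM around a median of 11.5 TPM, those at 14 DPI were 18.8, 11.2, 9.39 and 16.9 TPM and those at 28 DPI 11.2, 14.6, 10.01 and 15.2 TPM. Cadm3, an adhesion molecule best known from nervous tissue, differed by 2.36 ± 0.26 at 3 DPI and 1.27 ± 0.26 at 28 DPI, and no contralateral muscle overlapped with control. Genes of peripheral nerve and its Schwann cells moved beside Mobp and Cadm3 at 3 DPI: of 10 tested, Mobp among them, 5 were called higher at 3 DPI, where 8.25% of all tested genes were, and 3 after size factors, where 225 of 9449 were, while Mobp was the 1 called on each later day. Their part in the values of Mobp and Cadm3 was not tested. Fxyd2, a regulatory subunit of the sodium pump, lay at 3.23 to 16.7 TPM in control and 14.6 to 59.9 TPM in contralateral muscle. Transferrin (Tf), the iron carrier of plasma, lay at 3.15 to 3.66 TPM in control and 6.82 to 20.9 TPM in contralateral muscle. The phospholipid transfer protein Pltp lay at 5.65 to 10.4 TPM in control and 14.2 to 34.5 TPM in contralateral muscle, and the ribonuclease Rnase4 at 4.7 to 10.6 TPM in control and 12.1 to 58.8 TPM in contralateral muscle. In Tf the 4 controls spanned the narrowest range of these, and in Fxyd2 the widest, with replicate 4 lowest.

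Hmgn5, which encodes a nucleosome-binding protein, was the 1 gene lower on every day. The 4 control muscles held 12.2, 8.39, 10.7 and 2.54 TPM of Hmgn5. Its level was 1.14, 1.42, 0 and 2.07 TPM at 3 DPI, 0 to 4.51 TPM at 7 DPI (10 muscles, median 0), 0, 0.25, 0 and 0 TPM at 14 DPI and 0, 0, 1.66 and 1.96 TPM at 28 DPI. It was listed at 0 in 13 of the 22 contralateral muscles, and 21 of the 22 lay below the lowest control, replicate 4. An exact 0 in a TPM table can be a failed estimate as well as absent RNA. The fitted log2 fold change, -2.08 at 3 DPI and -3.0 at 14 DPI, depends on the added 1 TPM, and with an added 0.1 TPM Hmgn5 was not called on every day.

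Most of the 39 genes were highest at 3 DPI. An F test between the 4 days, whose contrasts leave out the control muscles, passed an adjusted p of 0.05 for 30 of the 39 genes, against 64.6% of all tested genes. The 9 that did not pass were Acot4, Ccl6, Cfd, Clec2g, Hmgn5, LOC100362981, Mdk, Mobp and RT1-Db1. Of the 38 higher genes 36 had their largest fold at 3 DPI, and so had 85% of all tested genes. After size factors the F test passed for 14 of the 39 and for 43% of all genes, and 3 DPI was the largest for 32 of the 38 and for 35.2% of all genes. In Dcn the muscles at 7 DPI were lower than those at 3 DPI (difference -1.15 on the log2 scale, adjusted p 0.00108), and those at 28 DPI differed from those at 7 DPI by 0.21 (adjusted p 0.775), which did not pass. Within the 3 DPI group, replicate 4 (NoRepair) was the lowest muscle in Dcn, C1qa, Alox5ap, Cfd, Serpinf1 and Mcpt1l1.

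Repair of the injured leg made no called difference to these genes in the opposite leg. MMG and NoRepair contralateral muscles were compared within each day, with 2 muscles an arm at 3, 14 and 28 DPI and 6 against 4 at 7 DPI. Of all tested genes, limma called 1 at 3 DPI (Mir10a, higher in MMG, a precursor named after its value was seen) and 0 on each other day, while 55, 1574, 83 and 31 had an unadjusted p under 0.05 at 3, 7, 14 and 28 DPI. None of the 39 genes reached an adjusted p under 0.05 between the arms on any day. With so few muscles an arm this does not show that the arms were alike.

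The same genes were looked up in muscles outside the comparison. Contralateral muscles of running rats numbered 4 each at 3, 7 and 14 DPI. Against these the controls would be the same muscles that chose the genes, so no calls are given. Median levels of Dcn in running rats were 405, 288 and 223 TPM, of C1qa 47.8, 30.8 and 23.6 TPM, and of Acot4 2.88, 5.0 and 6.34 TPM at 3, 7 and 14 DPI. The highest control values were 131, 9.87 and 0.68 TPM. As these controls chose the genes, medians above them are no separate support.

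Injured muscles of non-running rats, 10, 16, 8 and 8 at 3, 7, 14 and 28 DPI, had a higher mean than contralateral muscle for 31, 34, 35 and 36 of the 38 genes on the 4 days, against 71.1%, 82.8%, 83.2% and 82.7% of all tested genes. The macrophage gene C1qa had a median of 411 TPM in injured muscle at 3 DPI against 49.3 TPM in contralateral muscle, and Lum 1586 against 18.1 TPM at 7 DPI. Not every gene was higher in the injured leg. Acot4 had medians of 1.82, 4.32, 5.34 and 3.85 TPM in injured and 4.71, 4.54, 6.86 and 5.16 TPM in contralateral muscle at 3, 7, 14 and 28 DPI. For Cadm3 they were 24.6, 16.3, 15.5 and 21 TPM and 28.4, 11.5, 14 and 12.9 TPM. Myoc stood lower in injured muscle at first, at 4.35 against 73.2 TPM at 3 DPI, and reached 57.1 against 49.9 TPM at 28 DPI. Gsn likewise was at 246 against 799 TPM at 3 DPI. In Hmgn5 the injured muscles had medians of 1.22, 0, 0 and 0.01 TPM. These differences between legs were not tested here.

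The count of 39 depended on the 4 controls. With each of the 26 muscles left out in turn it ranged from 15 to 58, lowest without control replicate 4 and highest without control replicate 3, and 13 genes were called on every day in all 26 fits: Acot4, Alox5ap, C1qa, C1qb, Cadm3, Ccl6, Clec2g, LOC100362981, Mcpt1l1, Mdk, Mfap5, Mobp and Tf. Leaving out replicate 1, 2 or 4 of the 28 DPI group gave 25 each. It was 17 without the 2 muscles of rat 038 and 66 without those of rat 037. With the muscles of each control rat averaged, so that 2 rats stand for the group, it was 18. Size factors gave 22, of which 19 were among the 39. In all of 11 fits that changed the control group, the scaling, the replicate block or the groups in the model, 7 genes stayed called on every day: Acot4, Alox5ap, C1qa, C1qb, Cadm3, Clec2g and LOC100362981. By contrast, 0 of the 7 matrix genes were called on every day with size factors or with control rats averaged. Without control replicate 4 it was 1, Mfap5, and with size factors and without that muscle 2, Prelp and Mfap5. At 3 DPI alone all 7 were called in each of these fits. The 10 muscles at 7 DPI come from 3 ranges of rat numbers, and against control 2 of the 39 genes were called for the 2 rats of the lowest numbers, 13 for the 4 of the middle range and 33 for the 4 of the highest numbers, where 7, 45 and 162 genes were called in all. Both rats of the lowest range were MMG, so range, repair arm and number of muscles cannot be told apart there. The log2 fold changes in the 3 ranges were 1.221, 1.365 and 1.321 for C1qa and 0.75, 1.14 and 1.42 for Igfbp6.

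**Figure D3:**
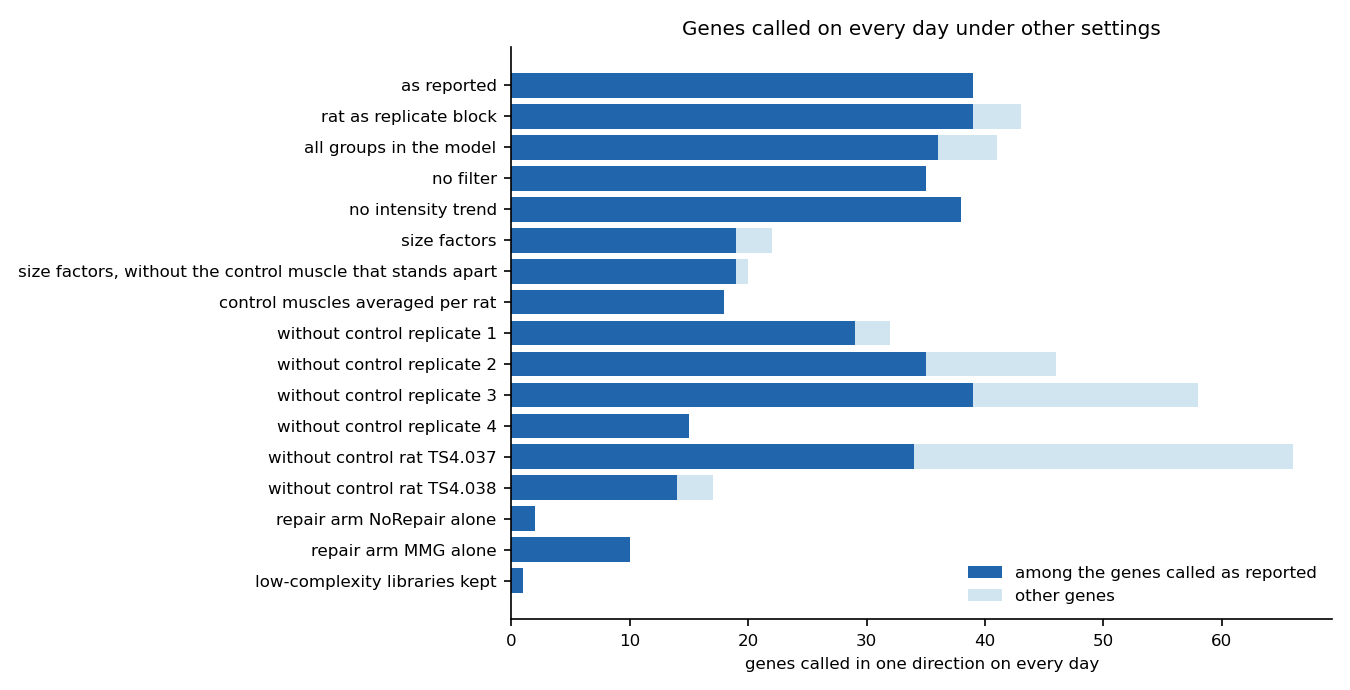
Number of genes called in one direction on every day (x axis) as reported and under 16 other settings (y axis), dark for genes among the 39 and light for other genes. The bar falls from 39 to 15 without control replicate 4 and to 1 with the low-complexity libraries kept, and rises to 66 without control rat 037.

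Lists of genes, chosen with earlier results of these data known, were set beside all tested genes for description. Their counts are no separate support. Of 27 tested genes for collagens and structural matrix, 27, 13, 16 and 3 were called higher at 3, 7, 14 and 28 DPI, and 0 were lower on any day. Of all tested genes 8.25%, 1.1%, 1.12% and 0.538% were called higher on these days, and the counts of this list and those that follow stand beside these shares. Their median log2 fold change was 1.7, 0.99, 1.07 and 0.7 on the 4 days, against 0.49, 0.12, 0.07 and 0.14 over all tested genes. After size factors 19, 9, 13 and 1 were called. Col1a1, the main chain of type I collagen, was at 19.6, 18.1, 21.5 and 11.4 TPM in control muscle and at 262, 107, 313 and 97.6 TPM at 3 DPI. It measured 47.7 to 148 TPM at 7 DPI (median 87.3), 133, 75, 58.1 and 104 TPM at 14 DPI and 60.3, 28.2, 15.7 and 56.6 TPM at 28 DPI. Its log2 fold change was 3.24 ± 0.40, 2.25 ± 0.34, 2.29 ± 0.40 and 0.99 ± 0.40 on the 4 days, and the last did not pass (adjusted p 0.191). The fibrillar collagens Col1a1, Col1a2 and Col3a1 were called at 3, 7 and 14 DPI and not at 28 DPI, and Dcn, Lum and Col14a1 were the 3 members of the list called on every day. The difference between these genes was not tested, and at 28 DPI Col14a1, at 1.04 ± 0.25, stood close to Col1a1. Without control replicate 4 none of the 3 was called at 28 DPI.

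Tendon and cartilage genes were highest at 3 DPI too, with 8 of 10 tested called higher by limma, and 0, 2 and 0 on the 3 later days. An unadjusted p under 0.05 was found for 6 of the 10 both at 7 and at 28 DPI. Kera, a keratan sulfate proteoglycan, had a log2 fold change of 3.11 ± 0.54 at 3 DPI, and Chad, a cartilage matrix protein, 2.49 ± 0.47. At 3 DPI Kera was at 49.9, 6.96, 51.9 and 5.39 TPM and Chad at 26.9, 6.13, 24.7 and 3.2 TPM, so replicates 1 and 3 stood far above the other 2, which in turn lay above every control. The markers Tnmd, Scx, Chad and Acan summed to 61.6 to 106 TPM at 3 DPI, above the 24.2 to 35.3 TPM of control, and to 16.7 to 52.4 TPM on the later days, with Acan at 0.09 TPM or below throughout. How much tendon each sample held was not measured, and its part in the matrix values at 3 DPI was not tested.

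Leukocyte markers were called higher for 17, 5, 8 and 3 of 20 tested at 3, 7, 14 and 28 DPI, with medians of 1.51, 0.89, 0.91 and 0.84, and for 12, 3, 6 and 2 after size factors. Lyz2, the lysozyme of macrophages, had log2 fold changes of 2.50, 1.29, 1.25 and 0.97, the last not called. Class II genes were called for 5 of 8 at 3 DPI and 1 of 8 on each later day, with medians of 1.3, 0.87, 0.86 and 0.89, and 0 of 8 on any day after size factors. Interferon response genes were called higher for 15 of 27 at 3 DPI, among them Irf7 (1.80 ± 0.28), and for 0 by limma on the later days (unadjusted p under 0.05 for 10, 2 and 7), with medians of 1.06, 0.22, 0.06 and 0.25. After size factors 5 were called at 3 DPI. Among neutrophil genes, S100a9 had a log2 fold change of 3.46 ± 0.53 at 3 DPI and 1.54 ± 0.44 at 7 DPI and S100a8 3.23 ± 0.60 and 1.71 ± 0.50. Without control replicate 4 the 7 DPI value of S100a9 was 1.13 and was not called. At 28 DPI they had values of -0.26 and 0.04 and were not called. S100a9 was at 3.02, 3.06, 3.93 and 0.4 TPM in control and 59.2, 62.8, 60.2 and 6.06 TPM at 3 DPI, where replicate 4 lay far below the other 3.

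**Figure D4:**
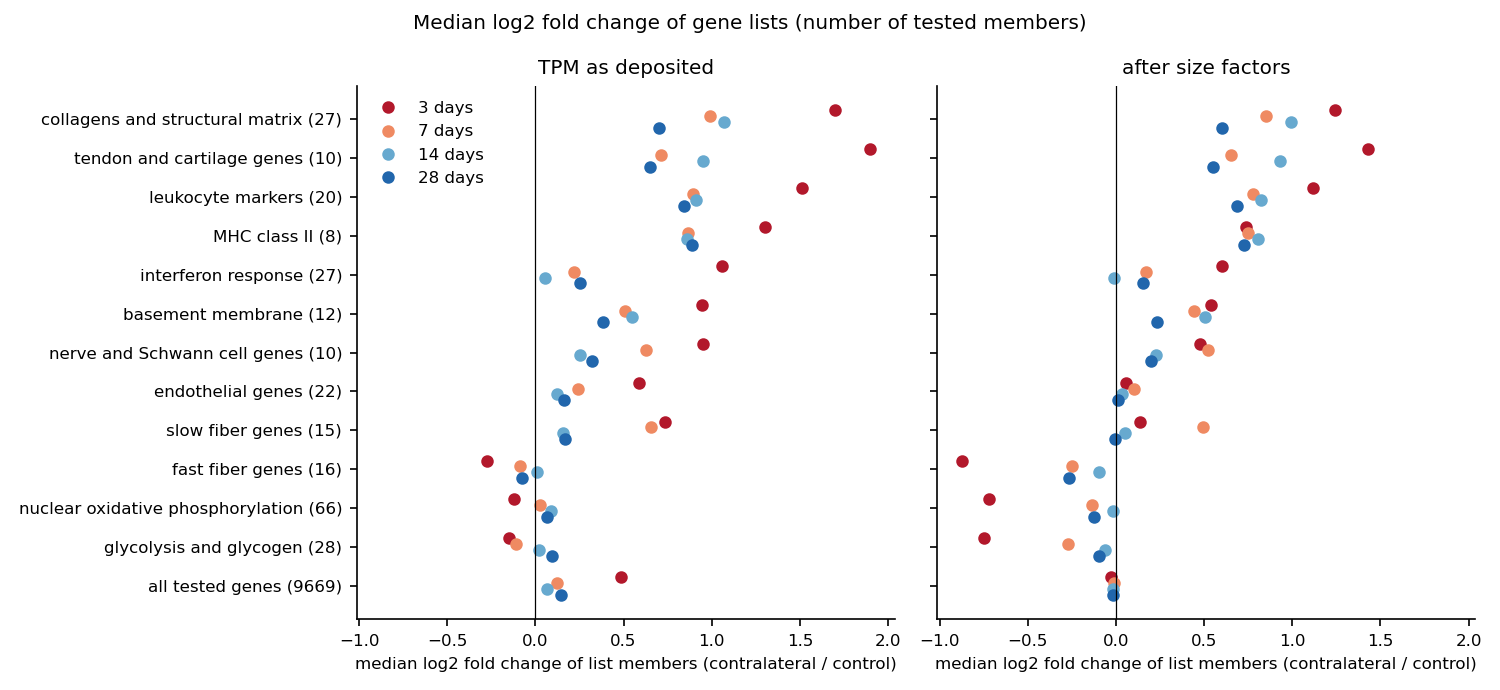
Median log2 fold change (contralateral over control, x axis) of 12 gene lists and of all tested genes (y axis, tested members in parentheses) on the 4 days, from TPM as deposited (left) and after size factors (right). Matrix, tendon and leukocyte lists lie to the right of all tested genes on each day in both panels, and the lists of fast fiber, oxidative phosphorylation and glycolysis genes, between -0.28 and -0.12 at 3 DPI on the left, lie at -0.88, -0.72 and -0.75 at 3 DPI on the right.

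The lists of fast fiber and mitochondrial genes gave no call. Of 16 fast fiber genes, 66 nuclear genes of oxidative phosphorylation and 70 mitochondrial ribosomal protein genes, 0 were called by limma in either direction on any day. An unadjusted p under 0.05 was found for 12, 33 and 33 of them at 3 DPI and for 3, 8 and 6 at 28 DPI, with log2 fold changes within 1. Their median log2 fold changes at 3 DPI were -0.28, -0.12 and 0.14 and were -0.88, -0.72 and -0.45 after size factors, so that of the mitochondrial ribosomal protein genes turned its direction. After size factors 7 fast fiber genes, 6 oxidative phosphorylation genes and 7 of 28 glycolysis genes were called lower at 3 DPI. Cell cycle genes (14 tested) and endoplasmic reticulum stress genes (20 tested) also gave 0 calls, with an unadjusted p under 0.05 for 10 and 16 of them at 3 DPI, and after size factors 1 stress gene was called lower at 7 DPI. Myogenin (Myog), the transcription factor of myoblast differentiation that rises in denervated muscle, had log2 fold changes of 1.90 ± 0.22, 1.11 ± 0.18 and 1.26 ± 0.22 at 3, 7 and 14 DPI, all called, and 0.49 ± 0.22 at 28 DPI, not called. The 7 DPI call was lost after size factors (0.99) and without control replicate 4 (0.86). Embryonic myosin (Myh3) was called at 3 DPI at 1.70 ± 0.25. Sarcolipin (Sln), a regulator of the calcium pump, rose by 2.22 ± 0.28 at 3 DPI and 1.82 ± 0.24 at 7 DPI. The ubiquitin ligase Fbxo32, known from muscle atrophy, rose by 1.70 ± 0.28 at 3 DPI and had values of -0.72, -0.58 and 0.17 later, none of them called. The follistatin gene Fst, a myostatin antagonist, rose by 1.34 ± 0.18 and 1.21 ± 0.15 at 3 and 7 DPI. The metallothionein Mt1 rose by 2.30 ± 0.34 at 3 DPI, and its values of 0.86, 0.79 and 0.84 on the later days were not called.

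Clock genes were called at 7 and 14 DPI. Of 15 tested, 1 was called higher and 2 lower at 7 DPI (1.1% and 0.145% of all tested genes), 1 lower at 14 DPI (0.0517%), and 0 by limma at 3 and 28 DPI, where 7 and 2 had an unadjusted p under 0.05. After size factors 0 were called higher and 3 lower at 7 DPI, and 2 lower at 14 DPI. All tested genes then had 22 lower calls at 7 DPI and 12 at 14 DPI. Ciart, a repressor in the clock's feedback loop, was at 4.78, 8.47, 14.5 and 6.77 TPM in control and 5.71, 11.3, 7.22 and 4.13 TPM at 3 DPI. At 7 DPI it ranged from 0.3 to 3.5 TPM (median 0.62), at 14 DPI it was at 0.22, 0.7, 4.26 and 1.92 TPM and at 28 DPI at 12.4, 8.79, 12.8 and 6.33 TPM. All muscles at 7 and 14 DPI lay below the lowest control, and none at 28 DPI did. Its log2 fold change was -2.24 ± 0.34 at 7 DPI (adjusted p 5.86e-05) and -1.92 ± 0.40 at 14 DPI (adjusted p 0.00268). Per1 fell by 1.34 on the log2 scale at 7 DPI (adjusted p 0.00383) and had a value of -1.08 at 14 DPI, not called, and 0.42 at 28 DPI. The activator Arntl was called higher at 7 DPI, 1.06 ± 0.29, but not after size factors or without control replicate 4. Dbp, a target of the clock, and Per2, one of its repressors, had values at 3, 7, 14 and 28 DPI of 0.34, -0.81, -0.93, 0.79 and 0.78, -0.91, -0.86, 0.38, none of them called, although Per2 was called lower at 7 DPI both after size factors (-1.05) and without control replicate 4 (-1.14). At 7 DPI Ciart was called for the rats of the middle and highest numbers and not for the 2 of the lowest numbers, where it was at 2.02 and 3.5 TPM. The hour of tissue collection is not given in the sources used here, and its part was not tested.

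**Figure D5:**
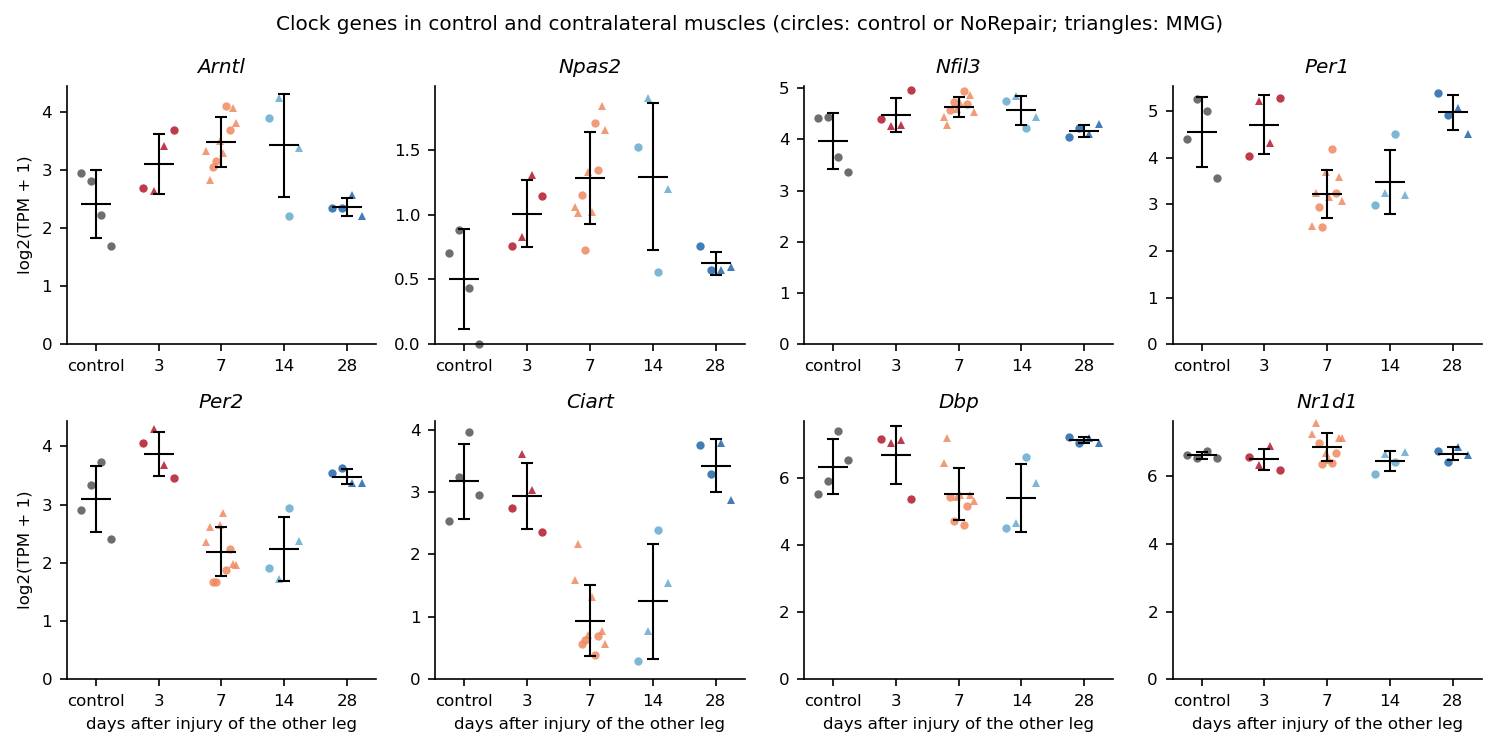
Level of 8 clock genes as log2(TPM + 1) (y axis) in each control and contralateral muscle by days after injury (x axis), with the mean as a horizontal line and the SD as bars. Per1, Per2 and Ciart lie low at 7 and 14 DPI and higher again at 28 DPI, Arntl and Npas2 lie high at 7 DPI, and the spread at 14 DPI is wide.

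Among the genes with the most extreme called values on single days whose groups did not overlap, a few fell outside the groups above. Cacng2, a calcium channel subunit, was lower at 7, 14 and 28 DPI, with log2 fold changes of -1.14 ± 0.14, -1.27 ± 0.17 and -1.46 ± 0.17, and had a value of -0.23 at 3 DPI. It was at 17.9, 18.6, 17.8 and 12.3 TPM in control and at 4.88, 7.78, 4.31 and 4.91 TPM at 28 DPI. Odf3l2 fell by 1.4 at 3 DPI and by 1.26 at 7 DPI on the log2 scale. Fhl3, a LIM domain protein of muscle, fell by 1.38 at 7 DPI. The ribosomal protein gene Rpl37a rose by 1.95 ± 0.25 at 7 DPI and 1.51 ± 0.30 at 14 DPI, and it was the 1 of 77 cytosolic ribosomal protein genes called on these days. Of the list of early genes induced by activity, Fos, a transcription factor, fell by 1.59 at 7 DPI (adjusted p 0.00711) and had values of -1.20 and -1.63 at 14 and 28 DPI that were not called. Its control values were 14.8, 26, 9.84 and 3.02 TPM and the 10 values at 7 DPI ran from 1.63 to 7.53 TPM, so the groups overlapped.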

How the data were processed

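Libraries were paired-end RNA-seq of rat TA muscle. The authors quantified reads with kallisto against rat genome build 6.0 and deposited TPM values per gene symbol in 1 table, which were used as deposited. The submitters' processing notes also name DESeq, and no counts were used here. The table's last, incomplete entry was left out, 16181 symbols were used, and genes later in the alphabet than Tubb3 were not analysed here. The study's methods give a mean depth and a minimum for keeping a library. No depth per library was used here, so precision rests on the muscles alone.

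Groups followed the labels. Another 9 libraries, among them 1 with conflicting day labels and 8 of running rats at 28 DPI, had no group and entered no comparison. Libraries with fewer than 7000 symbols above 1 TPM were dropped, and libraries of 1 muscle were averaged. Genes with a group mean above 1 TPM were tested on log2(TPM + 1) with limma 3.58.1 in R 4.3.3 (trended variance prior) and Benjamini-Hochberg adjustment, each day against control, and called at an adjusted p under 0.05 and a log2 fold change beyond 1. The days were compared by a moderated F test. Scripts were tested on simulated data. Lists of genes were described by counts and medians. The values of 1 marker list are not reported here.

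The rat was tried as a block for the left and right muscles of the control rats, as each rat gave both. The estimated correlation within a rat was -0.169. Replicate numbers do not pair muscles across groups, since these come from different rats. P values measure the spread between muscles of separate rats, except for the left and right muscles of the control rats.

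Named genes were all those called on every day, the 3 highest and 3 lowest called genes of each day whose groups did not overlap, all clock genes, and of each other list the 3 with the largest mean change among members called on a day. Other genes named were chosen after their values were seen and are marked. Members and lists were chosen with earlier results of these data known. Alternatives were the pseudocount, filter, scaling by size factors, all groups in 1 model, low-complexity libraries, averaging per rat, block, repair arm, fold limit, trend, rat numbers and muscles left out.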

Additional observations from a re-analysis of the deposited data

Results flagged for a closer look

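In 10 of 195 pairs of a group and a gene called on every day (5.1%), 1 muscle stood apart from its group by Dixon's criterion at the 95% level, and chance gives about 1 in 20. In control muscle these were replicate 4, low in C1s at 1.47 TPM and in Rnase4 at 4.7 TPM, and replicate 3, high in C1qa at 9.87 TPM. At 3 DPI the lowest muscle in Alox5ap was at 5.6 TPM. At 7 DPI the lowest muscle in Lum was at 9.11 TPM and in Rnase4 at 12.1 TPM, and the highest in Cfd was at 52.9 TPM. At 14 DPI the 1 muscle with a value above 0 in Hmgn5 was at 0.25 TPM. At 28 DPI the lowest muscle in Asgr2 was at 3.29 TPM and the highest in Folr2 at 5.64 TPM.

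Contralateral muscles differed between days, by the F test, in 30 of the 39 genes called on every day, against 64.6% of all tested genes, and in 14 of the 39 after size factors.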

How the results depend on the processing

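Counts of called genes are given in the order 3, 7, 14 and 28 DPI, mean of the days and every day, as 805, 120, 113, 54, 157 and 39 for the reported fit, and only counts that moved by over 1.5 times are listed, whose cause was not tested. A pseudocount of 0.1 TPM gave 1738, 436, 360, 181, 550 and 141, and no limit on the fold gave 7030, 2092, 1110, 241, 2655 and 181. Keeping the low-complexity libraries gave 292, 2, 2, 1, 3 and 1. Size factors gave 280 at 3 DPI, 98 for the mean and 22 on every day, and 4059 in place of 6250 genes in the F test between days. Size factors without control replicate 4, chosen after seeing the data, gave 245 at 3 DPI, 33 at 28 DPI, 81 for the mean and 20 on every day. Averaging the control muscles per rat gave 32 at 28 DPI and 18 on every day. Without control rat 037 the counts were 1523, 211, 189, 106, 275 and 66, and without rat 038 they were 29 at 28 DPI and 17 on every day. NoRepair muscles alone gave 49, 4 and 3 at 7, 14 and 28 DPI and 2 on every day, and MMG muscles alone gave 15 at 28 DPI and 10 on every day, from fewer muscles. At 7 DPI, the 2 rats of the lowest numbers gave 7 and the 4 of the middle range gave 45. Running rats, which are other muscles set against the same controls, gave 113 on every one of their 3 days, a count not comparable with 39. Leaving out 1 muscle at a time gave 515 to 1080, 90 to 177, 79 to 154, 26 to 84, 93 to 228 and 15 to 58, the lowest without control replicate 4 except at 14 DPI (79 without its replicate 1). The fit with the rat as a block gave 43 genes on every day, and it moved no count by over 1.5 times. Leaving out 3 DPI, chosen after seeing the data, gave 40 genes. Of 13227 values of named genes over all alternatives, 12037 kept their call, 1190 lost it and 0 reversed. Many of these alternatives left out 1 contralateral muscle, and losses were uneven. Of 318 values, 272 were lost with low-complexity libraries kept and 140 with NoRepair muscles alone. Size factors without control replicate 4 lost 95, leaving out that muscle alone lost 88, and the rat as a block lost 0. The depth of each library is not given in the sources used here and sets an unmeasured limit on genes near 1 TPM.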

Other observations

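Counts for other lists stand beside the shares of all tested genes called higher, 8.25%, 1.1%, 1.12% and 0.538% on the 4 days, and beside 225 of 9449 genes at 3 DPI after size factors. Of 23 genes of the myostatin, activin and BMP axis 8 were called higher at 3 DPI, among them Bmp4, a ligand of that family, which was called at 3, 14 and 28 DPI with log2 fold changes of 1.30 ± 0.21, 1.12 ± 0.21 and 1.18 ± 0.21. After size factors 1 of the 23 was called at 3 DPI. Basement membrane genes were called for 5 of 12 at 3 DPI and for 0 by limma on the later days, where 10, 9 and 7 had an unadjusted p under 0.05, and 0 were called at 3 DPI after size factors. Of 39 genes of fatty acid oxidation and PPAR targets 4, 2, 2 and 1 were called at 3, 7, 14 and 28 DPI, the first of these close to the share of all tested genes, and 2 were called at 3 DPI after size factors. Apart from Acot4 these included Angptl4, an inhibitor of lipoprotein lipase, at 1.74 ± 0.44, 1.37 ± 0.37 and 1.40 ± 0.44, and at 0.55 ± 0.44 at 28 DPI, where it was not called. Among 16 genes of the acute phase and the metallothioneins 5 were called at 3 DPI and 4 after size factors. Of 16 neuromuscular junction and denervation genes 4, 2 and 1 were called at 3, 7 and 14 DPI, and after size factors 2, 0 and 1. The medians of these 5 lists at 3 DPI were 0.62, 0.94, 0.6, 0.88 and 0.69, against 0.49 over all tested genes.

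Of 120 small and non-polyadenylated RNA genes 26 were called higher at 3 DPI, where 8.25% of all tested genes were, and 9 after size factors, where 225 of 9449 genes were. The counts were 2, 0 and 0 at 7, 14 and 28 DPI. After size factors they were 5, 0 and 0, and 1 gene was called lower at 14 DPI.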
